A study of Mus musculus with 2 samples.

Results

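The distal miRNA array of the imprinted Dlk1-Dio3 domain is a row of 35 miRNA genes on the plus strand of mouse chromosome 12, from Mir379 to Mir410. The genes were taken by symbol from the 2202 miRNA genes counted in the adrenal gland, and all 35 were found. The tissue came from female B6CASTF1/J mice aged 18 to 20 months, which are F1 offspring of a C57BL/6J by CAST/EiJ cross. Total RNA was made into small RNA libraries with a listed size range under 30, and 2 biological replicates form the only group. The replicates are separate tissue samples entered under the same donor record, and the labels do not say whether they come from 1 animal or several. SDs therefore measure only the spread between these samples, and whether that is technical, within an animal or between animals is not known. No allele, treatment or second age accompanies the group, so no comparison of conditions was made.

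MiRNA genes are transcribed as long precursors that are cut to hairpins, and each hairpin yields a 5p and a 3p strand, either of which can guide silencing of messenger RNAs. Target choice depends mostly on the seed, the bases near the 5′ end of the mature strand. In the Dlk1-Dio3 domain, the protein-coding genes Dlk1, Rtl1 and Dio3 are expressed from the paternal chromosome, while the noncoding Meg3, Rtl1-antisense, Rian and Mirg transcripts and their small RNAs come from the maternal one. The array has been studied mainly in brain, where Mir134 acts on dendritic spines through Limk1 and transcription factors of the Mef2 family raise its expression. The adrenal gland joins a steroid-producing cortex to a medulla of neuroendocrine chromaffin cells, and counts from the whole tissue cannot tell fewer cells of a type from less RNA per cell.

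The array spans positions 109709060 to 109743795 of chromosome 12 in the mm10 build, which is 34736 bases. Gaps between neighbouring hairpins ran from 20 to 4368 bases with a median of 605. The annotated noncoding gene Mirg, from 109729764 to 109749460, holds the last 12 members, Mir382 to Mir410. Of these, 4 lie in exons (Mir134, Mir485, Mir377 and Mir410), 4 cross an exon boundary (Mir382, Mir668, Mir412 and Mir369) and 4 lie in introns (Mir154, Mir496a, Mir541 and Mir409). The first 23 members, Mir379 to Mir544, lie upstream of it with no annotated host transcript on their strand in GENCODE M21.

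The 4 members that took most of the array's counts are shown first, as mature RNAs from RefSeq (GRCm38.p6, plus strand, 5′ to 3′). Capitals mark the seed, bases 2 to 8. The deposited counts are per hairpin gene, so they do not say which arm a read came from.
mmu-miR-379-5p, chr12:109709065-109709085: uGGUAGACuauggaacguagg
mmu-miR-379-3p, chr12:109709102-109709123: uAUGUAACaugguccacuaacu
mmu-miR-411-5p, chr12:109710190-109710210: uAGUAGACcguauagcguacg
mmu-miR-411-3p, chr12:109710225-109710246: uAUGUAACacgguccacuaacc
mmu-miR-541-5p, chr12:109742422-109742446: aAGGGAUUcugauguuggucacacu
mmu-miR-541-3p, chr12:109742466-109742487: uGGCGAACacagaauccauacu
mmu-miR-382-5p, chr12:109733781-109733802: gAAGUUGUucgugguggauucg
mmu-miR-382-3p, chr12:109733819-109733840: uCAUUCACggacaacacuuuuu
The 3p arms of Mir379 and Mir411, neighbours at the start of the array, carry the same seed, while their 5p seeds are different.

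Every member had at least 1 mature sequence in RefSeq, and 31 had both arms. The 66 mature sequences carried 61 different seeds, so the array is not one seed family. Only 5 seeds occurred in more than 1 member, and these took in 9 of the 35 genes. Besides the pair above, the shared seeds were the following.
mmu-miR-379-5p: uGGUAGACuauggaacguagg
mmu-miR-1193-5p: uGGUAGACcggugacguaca
mmu-miR-1197-5p: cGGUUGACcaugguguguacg
mmu-miR-758-5p: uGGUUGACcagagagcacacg
mmu-miR-494-5p: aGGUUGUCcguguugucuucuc
mmu-miR-410-5p: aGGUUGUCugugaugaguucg
mmu-miR-376c-5p: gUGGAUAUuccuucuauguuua
mmu-miR-376b-5p: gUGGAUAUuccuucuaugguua
Some members that shared a seed were far apart in level and others were not. Mir379 had 16040 and 10184 counts in replicates 1 and 2, and Mir1193 had 107 and 123. Mir376c had 852 and 679 counts, and Mir376b had 146 and 161. Mir494 had 174 and 252 counts and Mir410 had 133 and 50, so this pair was close in replicate 1 and apart in replicate 2. Mir379 and Mir411 (14938 and 10222 counts) were alike in both libraries, and Mir758 and Mir1197 had at most 3 counts each.

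A further 12 member seeds also occurred in miRNA genes that are not members, and for 2 of these the only such gene lies inside the span (Mir299b and Mir453). The 3p strand of Mir329 shares its seed with that of Mir362 on chromosome X, and both genes were detected.
mmu-miR-329-3p: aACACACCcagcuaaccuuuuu
mmu-miR-362-3p: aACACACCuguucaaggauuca
Mir329 had 403 and 343 counts, and Mir362 had 144 and 125. For the seed that Mir377-5p shares with Mir672-5p the order was turned round, with 85 and 53 counts for Mir377 against 1512 and 1873 for Mir672. The seed of Mir495-3p is also that of Mir1192, which had 0 counts in both libraries.

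In these adrenal libraries the array was broadly present. With detection set at 10 or more counts in each library, 32 of the 35 members were detected (91.4%), against 339 of all 2202 miRNA genes (15.4%). These percentages do not compare like sets. Of the 2202 genes, 1135 share 18 or more bases with another miRNA gene, as do 5 of the 35 members. Reads that align to several places are in no gene count. The members together took 68426 counts in replicate 1, which is 2.64% of own-strand miRNA counts (95% Wilson interval 2.62 to 2.66). In replicate 2 they took 58000 counts, or 2.53% (2.51 to 2.55). The mean was 2.59% ± 0.0780 (SD, n = 2), and the single-library intervals cover counting error only. Own-strand counts in miRNA genes totalled 2590051 and 2291030, and levels are given as counts per 1000000 of these totals (CPM). Mature products are of like length, so counts were not divided by length.

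Most array counts came from Mir379, Mir411, Mir541 and Mir382, which were the 33rd, 34th, 37th and 42nd most abundant of all miRNA genes. Mir379, the first hairpin of the row, was at 6193 CPM in replicate 1 and 4445 in replicate 2, a mean of 5319 ± 1236 (SD, n = 2). Mir411, the next hairpin, was at 5767 and 4462 CPM (5115 ± 923). Both were higher in replicate 1, and their ranges overlapped each other almost wholly. Mir541, an intronic hairpin of Mirg near the far end, was at 3947 and 4920 CPM (4433 ± 688), and it was the array's highest member in replicate 2 but the third in replicate 1. Its range overlapped those of Mir379 and Mir411, so these 3 levels could not be put in order beyond the spread between libraries. Mir382, the first hairpin within Mirg, was at 3205 and 3465 CPM (3335 ± 183), below the other three in both libraries. The 3 miRNA genes outside the array whose levels were nearest to Mir379 were Mir30e (5654 ± 642 CPM), Mir674 (5698 ± 2504 CPM) and the let-7 family member Mir98 (4616 ± 494 CPM), by mean and SD over the same 2 libraries.

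**Figure D1:**
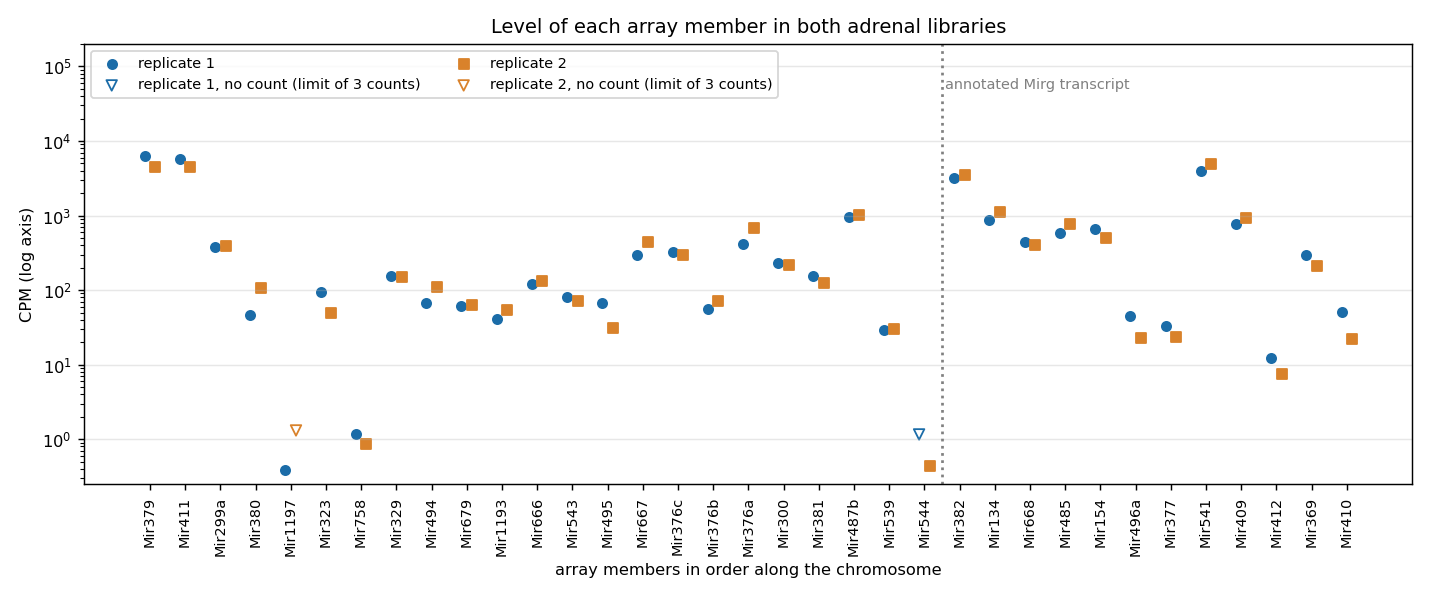
Level of each of the 35 members in CPM (log axis) in replicate 1 (circles) and replicate 2 (squares), in order along the chromosome; open triangles mark a library with no count, at the limit of 3 counts, and the dotted line marks the start of the Mirg transcript. The highest members stand at both ends of the row, with Mir379 and Mir411 at the start and Mir541 near the end, and 3 members upstream of Mirg lie near or below 1 CPM.

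The next members stood clearly lower. Mir134, the best known member for its role at synapses, was at 867 and 1119 CPM (993 ± 178), so its higher value was still below the lower value of Mir382. Mir487b was at 953 and 1010.0 CPM (981 ± 40.4), within the range of Mir134. Mir409 was at 768 and 928 CPM (848 ± 113). Mir134 and Mir487b were each above Mir409 in both libraries, although the range of Mir409 reached into that of Mir134, and the order of Mir134 and Mir487b turned round between the libraries. Mir485, which lies in a Mirg exon, was at 575 and 775 CPM (675 ± 142), and Mir154, in an intron, was at 653 and 494 CPM (574 ± 113). Mir376a was at 415 and 670.4 CPM (543 ± 181). Mir485 and Mir376a were higher in replicate 2 and Mir154 in replicate 1, and all 3 ranges overlapped. Mir668 was at 437 and 405 CPM and Mir299a at 375 and 385 CPM, which completes the 12 highest members.

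By mean level, 4 members were at 1000 CPM or more, 15 were between 100 and 1000, 12 were between 10 and 100, and 4 were under 10. The top 4 took 72.3% of array counts in replicate 1 and 68.3% in replicate 2 (mean 70.3% ± 2.86, SD, n = 2), and the top 10 took 88.4% and 88.0%. Within that total the make-up moved. Mir379 went from 23.4% of the array in replicate 1 to 17.6% in replicate 2 and Mir411 from 21.8% to 17.6%, whereas Mir541 went from 14.9% to 19.4% and Mir382 from 12.1% to 13.7%. Mir379 was on average 538-fold above Mir412, the lowest detected member.

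**Figure D2:**
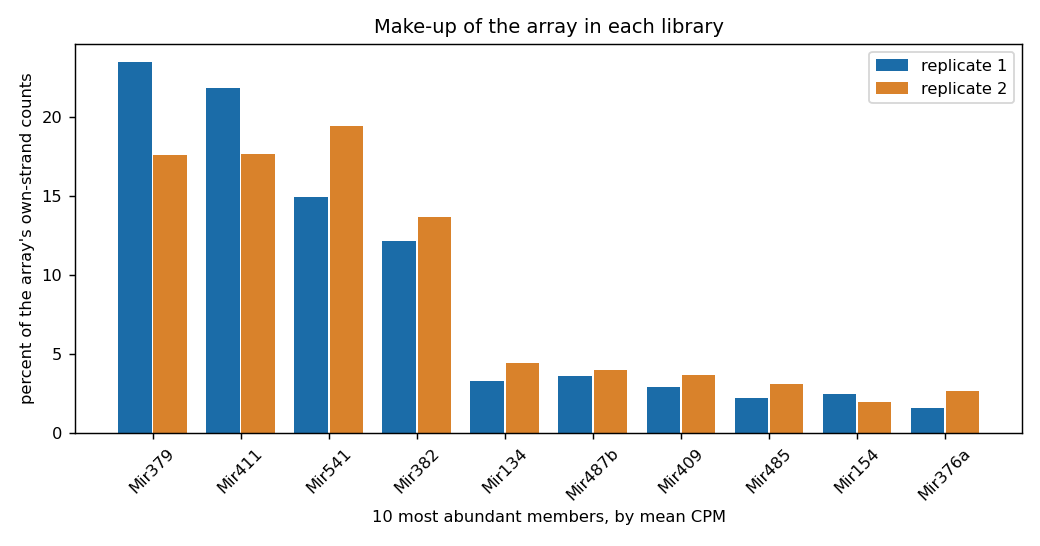
Share of the array's own-strand counts (percent) taken by each of its 10 most abundant members, in replicates 1 and 2. Mir379 and Mir411 take the most in replicate 1, at 23.4% and 21.8%, and Mir541 takes the most in replicate 2, at 19.4%.

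Members at the bottom of the range were few. Mir758 had 3 and 2 counts, Mir544 had 0 and 1, and Mir1197 had 1 and 0. These values are at or under the 3 counts that a count of 0 allows (1.16 CPM in the first library, 1.31 CPM in the second), so their levels were not measurable at this depth. Mir758 and Mir1197 lie between well-covered neighbours: Mir380, Mir323 and Mir329, on either side of or between them, had 120 to 403 counts in replicate 1 and 114 to 343 in replicate 2. Mir412 was the only other member below 10 CPM on average, with 32 and 17 counts. The remaining detected members ran from 27.98 CPM (Mir377) to 369 CPM (Mir667) in mean level.

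Position within the row gave little order to the levels. Over the 35 members the Spearman correlation of order and mean level was 0.02, that of the levels of neighbouring members was 0.20 (n = 34 pairs), and all these points share the same 2 libraries. Upstream of Mirg, 20 of 23 members were detected, with a median of 134 CPM, and they held 58.8% of array counts in replicate 1 and 51.1% in replicate 2. Within Mirg, 12 of 12 were detected, with a median of 497 CPM, and they held 41.2% and 48.9%. Hairpin GC content had a Spearman correlation of 0.01 with level, and the detected members had a median GC of 42.4% (range 29.1 to 64.6) against 50.0% over all detected miRNA hairpins.

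The libraries were then compared gene by gene. The test was an exact binomial one on each gene's reads (two-sided, given their sum), which carries counting error only and compares these 2 libraries, not conditions. Of the 32 members with enough counts to test, 11 were higher in replicate 2 (34.4%), 9 were higher in replicate 1 (28.1%) and 12 did not pass at an adjusted p of 0.05 (Benjamini-Hochberg over 367 tested genes). Over all 367 tested genes, 30.2% were called higher in replicate 2, 32.4% higher in replicate 1 and 62.7% in either direction, so the members were called about as often as miRNA genes in general. Their median log2 ratio, replicate 2 over replicate 1, was 0.03 against 0.01 for all tested genes, and their median absolute log2 ratio was 0.36 against 0.46. Summed over all members, the array was at 26419 CPM in replicate 1 and 25316 in replicate 2. At 2-fold or more, 1 called member was higher in replicate 2 and 2 were higher in replicate 1, beside 7.08% and 10.6% of all tested genes.

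Upward differences in replicate 2 were led by Mir380, Mir494 and Mir376a. Mir380 had 120 counts in replicate 1 and 244 in replicate 2 (46.3 and 107 CPM), a log2 ratio of 1.23 (95% interval 0.92 to 1.57, exact test, adjusted p = 6.53e-15). Mir494 had 174 and 252 counts (67.2 and 110.0 CPM), a log2 ratio of 0.75. Mir376a had 1075 and 1536 counts. Its log2 ratio was 0.73 (0.62 to 0.84, exact test, adjusted p = 5.59e-37). These 3 lie upstream of Mirg and are not next to each other in the row. Mir667 followed with 755 and 1023 counts (log2 ratio 0.65), and Mir485 with 1488 and 1776 (0.47). Mir134 had 2245 and 2564 counts (0.41), and Mir1193 had 107 and 123 (0.41). The mature strands of Mir380, the member with the largest difference, carry seeds found in no other member.
mmu-miR-380-5p, chr12:109711806-109711827: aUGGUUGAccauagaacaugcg
mmu-miR-380-3p, chr12:109711842-109711863: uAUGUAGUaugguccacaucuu

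In the other direction, members with low counts had the largest ratios. Mir410, the last gene of the row, had 133 counts in replicate 1 and 50 in replicate 2 (51.4 and 21.8 CPM), a log2 ratio of -1.19 (-1.70 to -0.72, exact test, adjusted p = 3.90e-07). Mir495 had 175 and 72 counts (67.6 and 31.4 CPM), a log2 ratio of -1.06 (-1.48 to -0.66, exact test, adjusted p = 1.11e-07). Mir496a had 118 and 52 counts (-0.96). With these counts the intervals of the 3 genes overlap, so they could not be ranked by size of change. Mir323 had 245 and 114 counts (-0.89), and Mir369 had 759 and 480 (-0.45). The ratio of Mir412 was -0.68 (-1.64 to 0.19) and did not pass. Among the most abundant members, Mir379 had a log2 ratio of -0.44 (-0.48 to -0.41, exact test, adjusted p = 5.11e-130) and Mir411 one of -0.33 (-0.37 to -0.30). Mir541 went the opposite way at 0.36 (0.32 to 0.39, exact test, adjusted p = 6.74e-72). The differences of these abundant genes were small in size, all under 0.5 on the log2 scale.

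**Figure D3:**
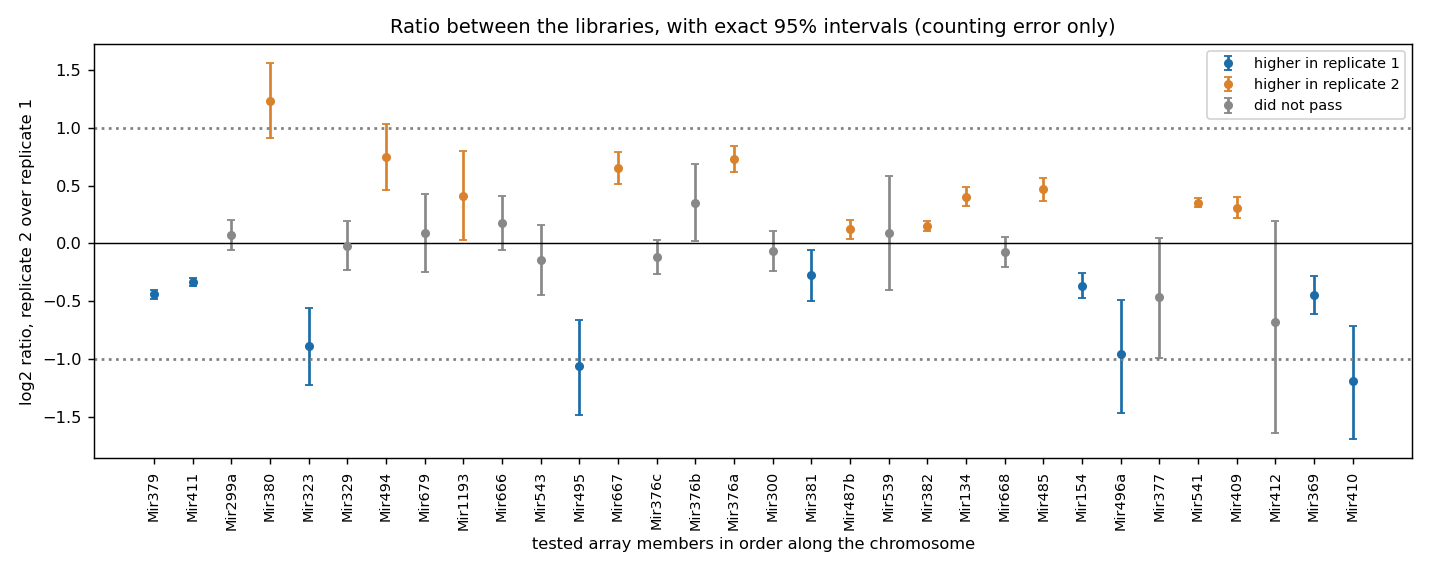
Log2 ratio of replicate 2 over replicate 1 for the 32 tested members, in order along the chromosome, with 95% exact intervals that cover counting error only and colours for the call. Points above and below 0 are interleaved along the row, from 1.23 for Mir380 to -1.19 for Mir410.

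Neighbouring hairpins went the same way in some places and opposite ways in others. Among neighbours that were both called, Mir379 and Mir411 went the same way, as did Mir541 and Mir409. Mir495 and Mir667 went opposite ways, as did Mir380 and Mir323, which are neighbours only when the untested Mir1197 between them is left out. The Spearman correlation of log2 ratios between neighbouring tested members was 0.04 (n = 31 pairs, which share both libraries). Close to the end of the row, Mir409 (1988 and 2126 counts, log2 ratio 0.31) lies 52 bases from Mir412, which did not pass, and Mir412 lies 49 bases from Mir369, which was higher in replicate 1. Upstream of Mirg 6 of 20 tested members were higher in replicate 2 and 5 in replicate 1, and within Mirg 5 of 12 and 4 of 12. Over all 367 tested genes these shares were 30.2% and 32.4%, and a difference between the 2 parts was not tested.

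The 12 members that did not pass were Mir299a, Mir329, Mir679, Mir666, Mir543, Mir376c, Mir376b, Mir300, Mir539, Mir668, Mir377 and Mir412. Their log2 ratios ran from -0.68 (Mir412) to 0.35 (Mir376b). Mir668, the most abundant of them, had 1133 and 928 counts and a ratio of -0.07 (-0.20 to 0.05), and Mir299a had 972 and 882 and a ratio of 0.07 (-0.06 to 0.21). For both genes the interval leaves room for less than a 2-fold difference in either direction. With few counts the limits were wider, as for Mir539, with 75 and 69 counts (-0.40 to 0.59).

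Whether a call held under other scalings was checked member by member. Under DESeq2 size factors, total counts and TMM factors from all genes, 8 of the 11 members higher in replicate 2 kept their call (Mir380, Mir494, Mir667, Mir376a, Mir134, Mir485, Mir541 and Mir409), as did all 9 higher in replicate 1. The calls of Mir1193 (log2 ratio 0.41, exact test, adjusted p = 0.0471), Mir487b (0.12) and Mir382 (0.15) were lost under at least 1 of them. TMM factors from all genes, chosen after seeing the data, shifted the median of all tested genes from 0.01 to -0.12. Member calls became 8 higher in replicate 2 and 13 higher in replicate 1. Over all tested genes these factors gave 85 and 139 such calls. With strand ignored, 27 members could be tested, of which 7 were called higher in replicate 2 and 9 in replicate 1. Over all genes tested in that way, 102 and 109 were so called.

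The Mir376 genes are a small family within the row, and their precursors are known targets of adenosine-to-inosine editing in brain. Edited reads cannot be told apart in counts per gene. Mir376a is shown beside the 2 relatives printed above.
mmu-miR-376a-5p, chr12:109723786-109723807: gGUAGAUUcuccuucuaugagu
mmu-miR-376a-3p, chr12:109723824-109723844: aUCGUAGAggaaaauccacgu
mmu-miR-376b-3p, chr12:109723508-109723528: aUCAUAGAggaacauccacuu
Mir376c and Mir376b share an unbroken run of 31 hairpin bases, which covers 18 of the 22 bases of both 5p strands, so reads of one could have been lost as aligning to several places or been counted in the other. Only Mir376a passed the test. Mir376c had a log2 ratio of -0.11 (-0.26 to 0.03) and Mir376b one of 0.35 (0.02 to 0.69, exact test, adjusted p = 0.0539).

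Hairpin pairs with 18 or more shared bases were otherwise rare. Mir411 and Mir758 share a run of 21 bases and Mir376b and Mir487b one of 20, which makes 5 members with such a partner among non-overlapping miRNA genes, all of them members. Mir299b, which lies over Mir299a on the opposite strand, was not counted as a partner, although its 3p strand is the same as the start of the 3p strand of Mir299a. Mir411 is the second most abundant member and Mir758 had at most 3 counts. Mir300 (597 and 492 counts) and Mir381 (404 and 288 counts) share 16 bases.
mmu-miR-300-3p, chr12:109724363-109724384: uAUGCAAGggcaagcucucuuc
mmu-miR-381-3p, chr12:109726870-109726891: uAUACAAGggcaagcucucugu
Of 528 pairs of the 33 member hairpins in RefSeq, 57 shared a run of at least 10 bases.

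A short sequence recurred more widely than the seeds. UUCGCUU, picked because it was the most frequent stretch of its length in the member hairpins, was in 10 of 33 of them (30.3%) and in 2 of 972 other mouse miRNA hairpins (0.206%). Its reverse complement was in none of either set. The stretch was picked for its frequency in the members, so its excess over other hairpins is no test of enrichment. The hairpins of Mir382, the most abundant with it, and of Mir495, Mir154 and Mir410 are shown with the stretch in capitals.
Mir382, chr12:109733771-109733846: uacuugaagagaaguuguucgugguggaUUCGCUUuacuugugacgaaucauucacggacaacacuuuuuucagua
Mir495, chr12:109718754-109718816: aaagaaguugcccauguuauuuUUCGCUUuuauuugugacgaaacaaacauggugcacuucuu
Mir154, chr12:109738433-109738498: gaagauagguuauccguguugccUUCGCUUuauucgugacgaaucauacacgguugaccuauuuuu
Mir410, chr12:109743715-109743795: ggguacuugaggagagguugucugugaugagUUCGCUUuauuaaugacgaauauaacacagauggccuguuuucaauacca
The other six were Mir323, Mir329, Mir543, Mir487b, Mir377 and Mir369. In 8 of the 9 hairpins with both arms listed the stretch overlapped only the last bases of the 5p strand. There it ran on past the end of that strand and did not reach the seed. In Mir329 it stood outside both arms. The 10 members held 21.1% of array counts in replicate 1 and 21.8% in replicate 2. Of them 5 were higher in replicate 1, 2 were higher in replicate 2 and 3 did not pass, with a median log2 ratio of -0.41. Of the 21 other tested members with a hairpin in RefSeq, 4 were called higher in the first library and 9 in the second (median 0.09). Over all 367 tested genes, 32.4% were called higher in the first library and 30.2% in the second (median 0.01). Since the stretch was chosen after the data were seen, these counts are a description and were not tested.

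Strand mattered for 5 members, because the annotation places another entry on the opposite strand over them. Mir299a is covered by Mir299b, Mir380 by Gm25750, Mir376a by Gm25252, Mir539 by Gm44322 and Mir409 by Gm24321. The 5 members had 4230 own-strand counts in replicate 1 and 4857 in replicate 2, which is 6.18% and 8.37% of the array. With strand ignored, 0 and 2 of these counts were assigned to them. The covering entries had 0 counts on their own strand in both libraries, as had the other 3 small RNA entries inside the span (Mir654, Gm27379 and Mir453), so the reads of these places lay on the strand of the members.

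The array was set beside the other miRNA genes of the imprinted domain. The 15 genes of the Rtl1-antisense group were taken by symbol, and all but Mir3544 and Mir3071 lie on the plus strand. Whether each gene overlaps the paternal Rtl1 messenger was not checked. The group had 13 detected and took 2.81% and 3.18% of counts. Its 3 most abundant genes were Mir127 with 52818 and 49672 counts, Mir433 with 9486 and 12342, and Mir431 with 3602 and 3852. The 5 genes in Meg3 and Rian had 4 detected and took 0.168% and 0.228%. Both groups had their larger share in replicate 2, and the array had its larger share in replicate 1. Of 13 tested Rtl1-antisense genes 7 were called higher in the second library and 4 in the first (median log2 ratio 0.31), and all 4 tested genes of Meg3 and Rian were higher in replicate 2 (median 0.51), against the 30.2% of all tested genes. A difference between the array and these groups was not tested. Median levels of detected genes were 188 CPM in the array, 375 CPM in the Rtl1-antisense group, 485 CPM in Meg3 and Rian, and 126 CPM over the 289 detected miRNAs outside the domain.

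**Figure D4:**
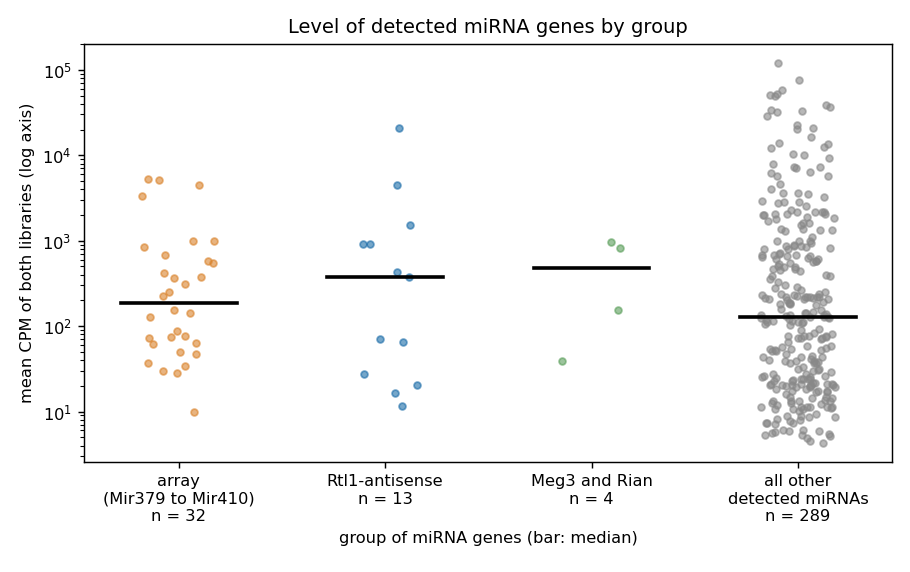
Mean CPM (log axis) of each detected miRNA gene in the array, in the Rtl1-antisense group, in Meg3 and Rian, and among all other detected miRNAs, with a bar at each median. The array's median of 188 CPM lies between those of the Rtl1-antisense group (375) and of the other miRNAs (126), and single genes of the latter reach far higher.

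Markers of other cell types also differed between the libraries. MiRNAs of chromaffin and endocrine cells, all 4 of 4 detected and led by Mir375, summed to 66107 CPM in replicate 1 and 56588 in replicate 2. Of 7 neuronal miRNA genes only Mir137 was detected (478 and 399 CPM), and the defining Mir124a-1, Mir124a-2, Mir124a-3 and Mir9-2 were at 0 in both. The endothelial Mir126a was at 64752 and 33412 CPM, and the 8 striated muscle genes, 1 of them detected, summed to 598 and 81.2 CPM, with Mir1a-1, Mir133a-1 and Mir133a-2 at 0. Each of these genes at 0 shares 18 or more bases with another miRNA gene, and a read matching more than 1 locus enters no gene count, so a count of 0 does not show that these RNAs were absent. Erythroid miRNAs, 3 of 3 detected, summed to 902 and 490.2 CPM, and leukocyte miRNAs, 4 of 4, to 1390 and 1353 CPM. Epithelial miRNAs, 2 of 5 detected, went the other way with 43.6 and 249 CPM, as did the liver miRNA Mir122 with 622 and 702 CPM. Kidney miRNAs, 2 of 3 detected, summed to 56.8 and 36.2 CPM, and those of the pancreatic acinus, 0 of 3 detected, to 1.93 and 0 CPM, with Mir216b at 0 in both. The part of these differences in the member ratios was not tested.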

How the data were processed

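MiRNA genes were counted by sequencing in 2 adrenal libraries of 1 group. The deposited values are raw counts of reads per gene in 3 columns (strand ignored, own strand, opposite strand). The build is mm10 and the annotation GENCODE M21, per the file headers and notes deposited by the authors. That build is of C57BL/6J. Aligner, counting program, adapter trimming: not given in the sources used here. Which column is which strand was read from the values. Reads that align to several places, 24.0% and 28.0% of those in the tables, are not in gene counts, and the 4 lines that name no gene were left out.

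From the own-strand counts, CPM, log2 ratios (prior count 0.5) and exact tests were computed here. Members were tested at a summed count of at least 20. TMM factors (edgeR 4.0.16, genes past that minimum) were 1.01 and 0.987. With 1 library a side, edgeR's quasi-likelihood test could not be fitted, so an exact binomial test of each gene's reads, given their sum, was used. It was tested on simulated data with counting error only, which does not cover any further spread between libraries. DESeq2 1.42.0 gave alternative scaling. R 4.3.3, Python 3.11.15, SciPy 1.17.1 and RefSeq sequences (GRCm38.p6, the same build) were used. Correlations are Spearman's, as descriptions.

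Members and lists were chosen with earlier results of these data known. All 35 members are accounted for. Values were given for the 12 highest, the 5 largest ratios in each direction, members under 10 counts, members of shared seeds, the 3 highest neighbours and the 3 genes nearest Mir379 in level. Other genes named were chosen after their values were seen.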

Additional observations from a re-analysis of the deposited data

Results flagged for a closer look

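Reads outside the gene counts were large in number in both libraries. In replicate 1, 3983683 reads were unmapped, 2357429 aligned to several places and 876402 lay in no miRNA gene. In replicate 2 these numbers were 2084143, 1958627 and 659864. The 5 annotated entries that cover members on the opposite strand (Mir299b, Gm25750, Gm25252, Gm44322 and Gm24321) had 4230 opposite-strand counts in replicate 1 and 4855 in replicate 2, and 0 on their own strand. The reads of the first 3 kinds are in no gene count used here, whereas the opposite-strand counts of the covering entries are the reads counted on the own strand of the members beneath them.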

How the results depend on the processing

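No paired analysis was possible because there is 1 group. With strand ignored the array's share was 2.77% and its top-5 share 80.0% (74.2% on the own strand). Of the members, 7 were then higher in replicate 2, beside 102 of all tested genes. The array's share is of the strand-ignored total. The array itself had fewer counts then, since the covered members lost nearly all of theirs. Without the 5 members that share 18 bases, the array's share was 1.94%, the top-5 share 77.0% and the correlation of position and level 0.0509 (0.0230 with all). Leaving out each library in turn gave that correlation a range of 0.0272 to 0.0602, the array's share 2.53% to 2.64% and the top-5 share 72.7% to 76.0%, and 32 members stayed detected. Requiring 2-fold left 1 and 2 calls. Under TMM factors from all genes, 4 ratios changed sign: Mir299a (0.07 to -0.0584), Mir679 (0.09 to -0.0419), Mir487b (0.12 to -0.0112) and Mir539 (0.09 to -0.0382). Of these, Mir487b was called before and none after. The cause was not tested. A prior count of 5 can change only the size of a log2 ratio. The test does not use it, and it is added in proportion to the scaled size of each library. With it Mir380 went from 1.23 to 1.20, Mir410 from -1.19 to -1.13 and Mir412 from -0.68 to -0.57. Log2 ratios cannot be recomputed without a replicate, and 5 covered members could not be tested with strand ignored. Low counts limit what can be said of Mir758, Mir544, Mir1197 and Mir412, and the cause of those low counts was not tested.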
